A study of Mus musculus with 8 samples.

Results

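Interferon-stimulated genes are the genes that cells switch on when interferon binds its receptor. A list of 37 of them was followed here by symbol in the 27318 genes of the count tables, and all 37 were found. The cells were single bone marrow cells from the LSK gate (lineage-negative, Sca1-positive, cKit-positive cells, among them the blood stem cells and the progenitors nearest to them), measured by CEL-seq2, a method that copies the 3′ end of polyadenylated RNA under a barcode for each well. All cells came from Dach1-GFP mice on a C57BL/6 background, in which an IRES-GFP cassette and a biotin tag were placed at the end of the Dach1 gene through a single targeted embryonic stem cell clone, so GFP fluorescence follows transcription of Dach1. Mice of the study were 8 to 16 weeks old, and no group was treated with interferon or anything else. The labels do not say which animals filled which plate.

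The data were 8 plates, 4 of a set named LC (replicates 1 to 4) and 4 of a set named LCE (replicates 5 to 8). After filtering, 2712 wells remained, 335 to 340 per plate. A well of the LC set had a plate median of 11586 to 13398 counts, and a well of the LCE set 5627 to 7525. The 7 genes listed for LSK cells summed to 913.3 to 1679.1 CPM (counts scaled to the library total) over the Sca1 terciles. The sorter had recorded each cell's fluorescence, so wells could be ranked within their plate by Sca1, CD135, Dach1-GFP and CD150 on all plates, and by CD48 on the LCE plates. There is a single group of samples and each comparison sets the highest tercile of a plate's wells against the lowest, with the difference given as high minus low on the log2 scale. The plates are the replicates, so a p-value reads only how far plates vary, and that variation can be technical. The same wells enter all 5 comparisons, CD48 on the LCE plates only. Plates reuse the same list of well barcodes, and 331 of 343 were kept on all 8 plates.

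Type I interferons bind the receptor chains Ifnar1 and Ifnar2, and the kinases Jak1 and Tyk2 then activate transcription factors of the STAT family, among them Stat2. With Irf9 these form a complex that binds a DNA element built from repeats of GAAA, the interferon-stimulated response element, ahead of the target genes. The targets include sensors of foreign nucleic acid, antiviral effectors such as the 2-5A synthetases and Mx GTPases, and membrane proteins of the Ifitm family that hinder virus entry. Stem and progenitor cells are known to hold some of these RNAs without infection. Sca1, the protein used to define the gate, is encoded by Ly6a, which interferon also induces.

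The 37 genes differed widely in level. Ifitm1, Ifitm2 and Ifitm3 had 10908, 7670 and 6812 counts over all kept wells, and 2340, 2227 and 2157 of the 2712 wells held at least 1 count of each. Eif2ak2, the double-stranded RNA kinase PKR, followed with 2033 counts, and Bst2, the membrane protein tetherin, with 1948. At the other end stood Ifit3 with 14 counts in 13 wells, Mx2 with 59 counts and Mx1 with 65. Ifitm1, Ifitm2 and Ifitm3 are close copies of each other, as are genes within the Oas and the Slfn families, so how counts were divided within each family is uncertain.

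Most of this RNA was spread over many wells. For the 30 members with at least 200 counts, the number of wells with a count was 0.719 to 0.969 times the number that Poisson sampling at each well's depth gives, with a median of 0.836. The median over all 11030 genes with at least 200 counts was 0.848, and their 10th and 90th percentiles were 0.7803 and 0.973. The members' median lay near that of all genes. Oas2 (0.719), Ifi44 (0.754), Ifit1 (0.755), Ifi27l2a (0.756) and Ifit2 (0.7801) lay below the 10th percentile. Genes were not matched on level here, and the abundant Ifitm1 had 0.969. Among the same 30 members, the well with the most counts of a member held between 0.235% (Ifitm2) and 3.604% (Ifit1) of its counts. The members other than Ifitm1, Ifitm2, Ifitm3, Bst2 and Slfn2, 32 genes in all, were summed per well. This set is not split off by level, since Slfn2, left out, had 115 counts and Eif2ak2, kept, had more than Bst2. The 32 genes had a count in 97.5% of the wells when summed. Their summed level had a median of 571 CPM over wells, and the 99th percentile was 2376 CPM.

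A small number of wells stood far above the rest. The highest 5 wells held 8142, 6567, 5784, 4837 and 3909 CPM of the 32 genes, and the sixth held 3116 CPM. These 5 wells lay on 5 different plates, replicates 7, 6, 4, 2 and 1, and had counts of 16, 20, 20, 13 and 14 of the 32 genes, against a median of 4 per well. In that order they held 28, 40, 64, 33 and 27 counts of these genes among 3439, 6091, 11065, 6822 and 6908 counts. Each was shallower than the median well of its plate. Of the 5, 4 were in the highest Sca1 tercile of their plate and 4 in the highest CD135 tercile, and none was in the lowest tercile of either. By Dach1-GFP 3 of the 5 were in the lowest tercile and 0 in the highest, and by CD150 3 and 1. The 2 with a CD48 value were both in its lowest tercile. Of the 3 richest wells of each plate, 16 of 24 were in the lowest GFP tercile and 3 in the highest. The plot of summed RNA shows the wells by Sca1 and CD135. Even so, the 27 highest wells (1% of all) held only 3.42% of the summed counts of the 32 genes, beside 0.673% of all counts.

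**Figure D1:**
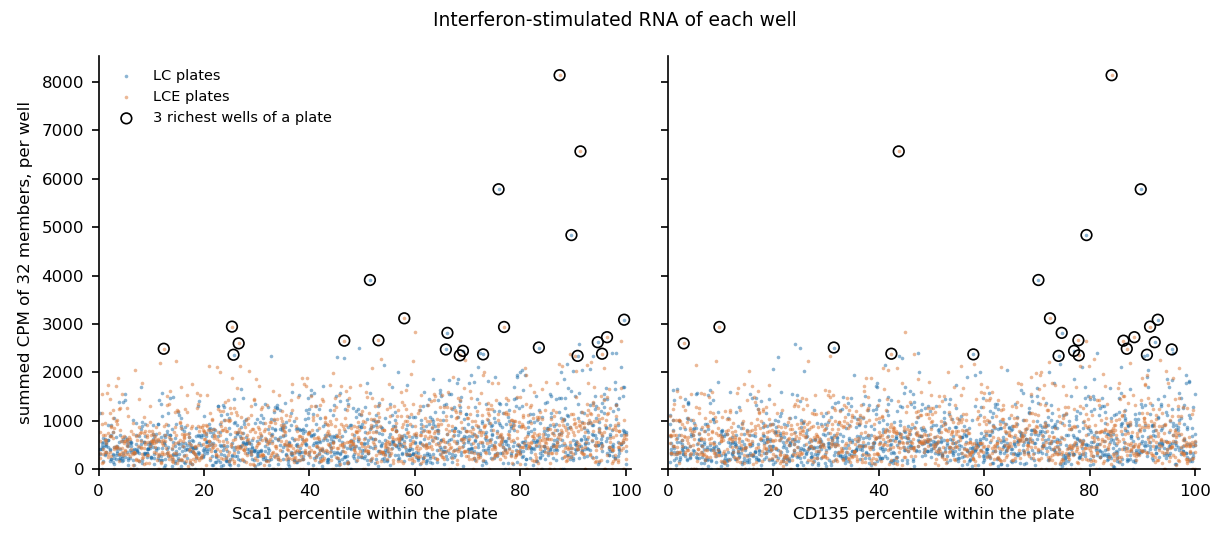
Each point is a well, with its summed CPM of 32 interferon-stimulated genes (y axis, linear) against its percentile of Sca1 (left) or CD135 (right) within its plate (x axis), blue for LC and orange for LCE plates. Circles mark the 3 wells with the most of this RNA on each plate, of which 14 of 24 lie in the highest Sca1 tercile and 18 of 24 in the highest CD135 tercile.

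To see which members gathered in the same wells, the 27 wells richest in the other members were taken for each gene in turn, so that no gene chose its own wells. Isg15 (ENSMUSG00000035692), the ubiquitin-like modifier, had 5.61% of its counts there (16 of 285 counts, in 11 of the 27 wells). Ifit1, which binds foreign RNA, had 5.41% (12 of 222 counts, in 6 wells), and Ifi44, an interferon-induced cytoplasmic protein, had 4.27% (24 of 562 counts, in 13 wells). Among the scarcest members, Ifit3 had 35.7% (5 of 14 counts), the dynamin-like GTPase Mx1 15.4% (10 of 65) and its relative Mx2 5.08% (3 of 59), and these shares rest on few counts.

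For comparison, the median over 11004 other genes with at least 200 counts was 0.625% in the 27 wells richest in the 32 genes, and their 99th percentile was 2.23%. Of the 26 among the 32 genes with at least 200 counts, 16 lay above that percentile. The abundant Ifitm members lay lower, with 1.25% for Ifitm3, 0.963% for Ifitm1 and 0.808% for Ifitm2. Aim2, a sensor of cytosolic DNA, had 0.542%, Ifi27l2a, a small mitochondrial protein, 0.833%, and Irf9 0.856%, so not every member gathered in these wells.

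**Figure D2:**
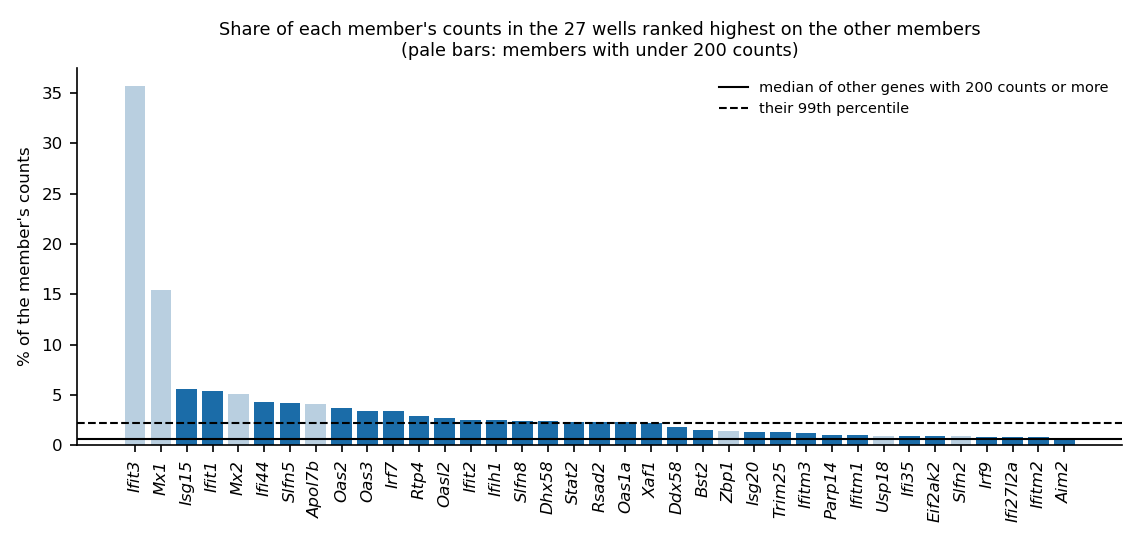
Bars give, for each of the 37 members, the percentage of its counts (y axis) that lay in the 27 wells ranked highest on the other members, with members of under 200 counts in a pale shade. The solid line is the median of other genes (0.625%) and the dashed line their 99th percentile (2.23%).

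The promoters of the members were read for the response element. The RefSeq promoter table (build GRCm38.p6) held a window from 250 bases before to 50 bases after the start for 28 of the 37 members. The core searched was GAAA, any 2 bases and GAAA again, on either strand and with overlaps counted. It was in the window of 15 of these 28 genes (53.6%), against 3.99% of all 27025 genes with a window. Of the 6 members with the largest share of counts in the 27 wells, Ifit3, Isg15, Ifit1 and Ifi44 had a window and the first 3 of these held the core, while the Ifi44 window did not hold these letters. A match is a description of letters and not a measured binding site. The stretches of these 3 promoters are shown because the genes they stand ahead of gathered most in the same wells. They are written 5′ to 3′ on the gene's strand, with each match to the core in capitals and overlapping matches run together.
Isg15, chr4:156200855-156200916, minus strand, 3 matches: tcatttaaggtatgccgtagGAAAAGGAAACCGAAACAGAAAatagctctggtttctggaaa
Ifit1, chr19:34640765-34640833, plus strand, 2 matches: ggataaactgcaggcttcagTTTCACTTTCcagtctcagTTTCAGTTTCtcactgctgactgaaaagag
Ifit3, chr19:34583353-34583436, plus strand, 2 matches: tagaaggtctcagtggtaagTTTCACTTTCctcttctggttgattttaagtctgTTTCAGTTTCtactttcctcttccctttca
All 7 matches lay between 66 and 156 bases ahead of the start, counted to the first base of the match. Those of Isg15 read along the gene's strand and those of Ifit1 and Ifit3 along the opposite strand.

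Pairs of members were also counted in the same well. Of the 496 pairs among the 32 genes, 441 were due in at least 5 wells if wells differed only in depth, and over these the median ratio of observed to expected wells was 1.01. So most pairs were found together about as often as depth gives. The 2-5A synthetase Oas2 and Ifi44 were together in 57 wells where depth gives 36.4, and Oas2 and the transcription factor Irf7, an amplifier of interferon responses, in 32 wells where depth gives 19.8. A ratio of at least 1.5 was seen in 19 of the 441 pairs.

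Ranked by Sca1, 13 members were higher in the Sca1-high tercile and 0 lower, of 29 tested. Over all 10162 genes tested, 5.63% were higher and 6.2% were lower (edgeR's quasi-likelihood test, adjusted p under 0.05). At an unadjusted p under 0.05 the members' counts were 21 higher and 0 lower, and DESeq2 called 8 higher and 0 lower. Shares of all genes at an unadjusted p and by DESeq2 are not given, here or for the other proteins and lists. Such counts therefore cannot be set against a general rate. The members' median difference was 0.49, beside 0.01 over all genes tested, and 28 of the 29 lay above 0. The 8 members outside the test had too few counts to pass the filter.

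**Figure D3:**
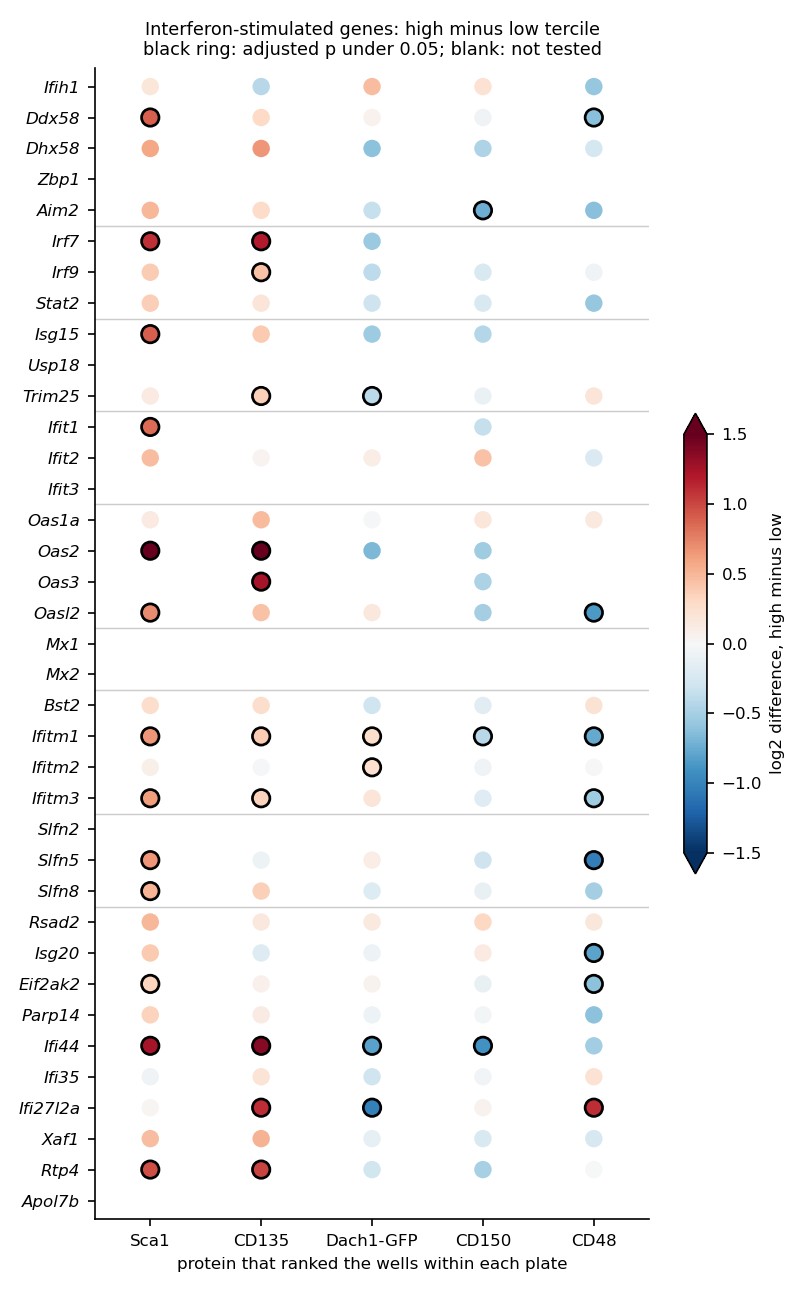
Each dot is the log2 difference (colour, high minus low tercile) of a member (rows, grouped by role) for each protein that ranked the wells (columns), with a black ring where the adjusted p is under 0.05 and a blank where a member was not tested. The Sca1 column holds 13 ringed members, all higher, and the CD48 column holds 7 lower and 1 higher.

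Among the effectors, Oas2 (ENSMUSG00000032690), a 2-5A synthetase, differed most. It had 2.20 to 8.02 CPM over plates (median 4.27) in Sca1-low wells and 11.7 to 29.9 CPM (median 18.0) in Sca1-high wells, and the arms did not overlap on any plate. The difference was 2.07 ± 0.26 (SE, edgeR adjusted p = 1.8e-08). Ifi44 (ENSMUSG00000028037) went from 7.73 to 18.6 CPM (median 12.5) in Sca1-low to 14.2 to 46.5 CPM (median 25.2) in Sca1-high wells, higher on 8 of 8 plates (1.25 ± 0.19, edgeR adjusted p = 2.1e-06). Rtp4, a chaperone that is also induced by interferon, went from a median of 27.7 to 51.8 CPM, higher on 8 of 8 plates (0.96 ± 0.14, edgeR adjusted p = 9.9e-07). All 8 plates had more of both genes in the Sca1-high wells, though their ranges over plates overlapped.

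The membrane factors carried most of the RNA. Ifitm1 (ENSMUSG00000025491) had 391, 379, 406 and 397 CPM in Sca1-low wells of the LC plates and 188.4, 226, 167 and 180 CPM on the LCE plates. In Sca1-high wells it had 589, 600, 565 and 538 CPM (LC) and 349, 311, 352 and 386 CPM (LCE). Within each set, every Sca1-high value lay above every Sca1-low value, and the LC plates lay above the LCE plates in both arms. The difference was 0.66 ± 0.05 (edgeR adjusted p = 1.4e-15). Ifitm3 differed by 0.63 ± 0.06 (edgeR adjusted p = 2.4e-12), from a median of 183 to 289 CPM and higher on 8 of 8 plates. Ifitm2 (0.09 ± 0.05, edgeR adjusted p = 0.306) and Bst2 (0.26 ± 0.10, edgeR adjusted p = 0.087) did not pass the test.

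Of the sensors 1 of 4 tested was called, of the transcription factors 1 of 3, and of the genes of Isg15 conjugation and E3 ligases 1 of 2. Ddx58, the RNA sensor RIG-I, rose from a median of 25.2 to 42.1 CPM and on 7 of 8 plates (0.90 ± 0.14, edgeR adjusted p = 4.2e-06), and Irf7 from 5.89 to 14.4 CPM (1.09 ± 0.26, edgeR adjusted p = 0.0022). Oasl2 (0.70 ± 0.15), Isg15 (0.90 ± 0.27), Ifit1 (0.85 ± 0.27), the Schlafen genes Slfn5 (0.66 ± 0.22) and Slfn8 (0.51 ± 0.16), and Eif2ak2 (0.34 ± 0.09) were the other calls, with edgeR adjusted p from 0.00062 to 0.036. Of these, Slfn8 was higher on only 5 of 8 plates and Isg15 and Oasl2 on 6 of 8. The call of Slfn5 was lost without any of replicates 1, 3, 4, 5, 6 or 8 (adjusted p up to 0.085), that of Slfn8 without 1, 2 or 3 (up to 0.139), that of Isg15 without 7 (0.085) and that of Ifit1 without 7 or 8 (up to 0.058). With 1 plate left out, Isg15 and Ifit1 passed the filter on low counts in only 4 of 8 fits each and Irf7 in 5 of 8, so their calls were not checked against every plate.

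**Figure D4:**
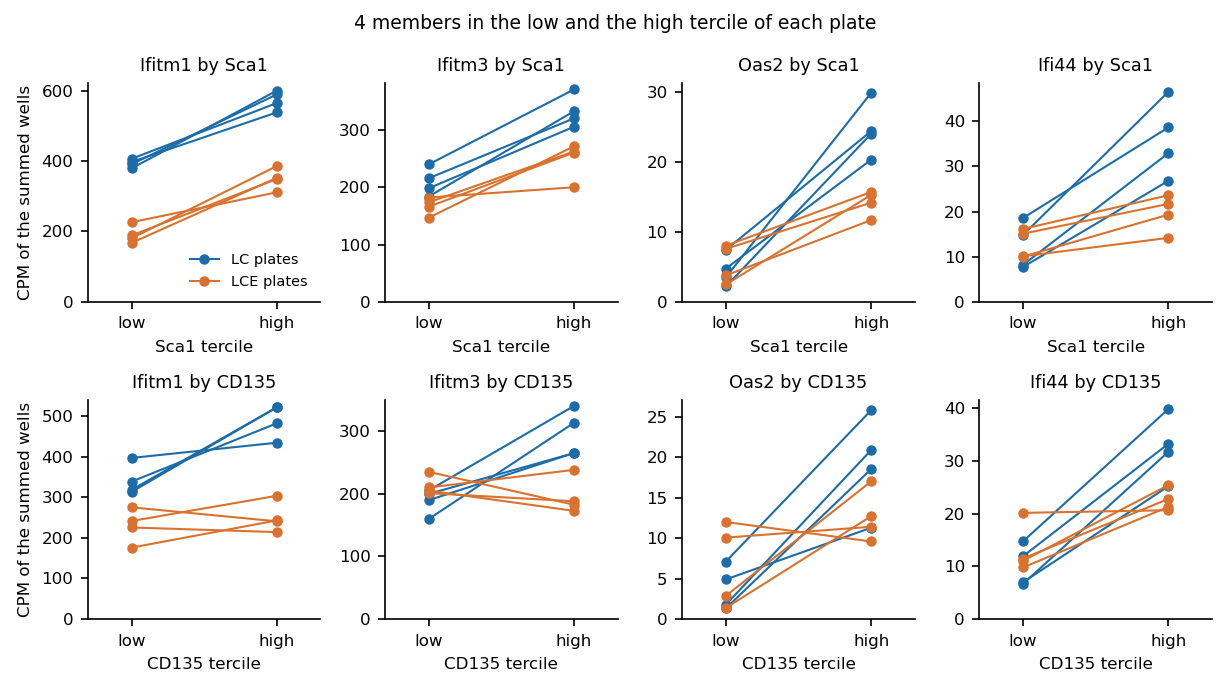
Lines join the low and the high tercile of each plate (x axis) for CPM of the summed wells (y axis, from 0) of Ifitm1, Ifitm3, Oas2 and Ifi44, by Sca1 in the upper row and by CD135 in the lower row, blue for LC and orange for LCE plates. By Sca1 all 8 lines rise for each of the 4 genes, while Ifitm3 by CD135 rises on 4 LC plates and 1 LCE plate.

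Sca1-high wells were shallower than Sca1-low wells, with plate medians of 5054 to 11813 counts against 6342 to 15168. Each arm held 901 wells. Eif2ak2 had 139, 123, 72, 121, 82, 58, 57 and 44 counts in Sca1-low wells of replicates 1 to 8. In Sca1-high wells it had 135, 130, 60, 113, 75, 64, 58 and 49 counts. Its counts thus fell on replicates 1, 3, 4 and 5, where its CPM rose. Ifitm1 rose in counts on every plate. The other Sca1 calls are given in CPM only. With every well thinned to 3000 counts, 12 members could be tested and 4 were called, all higher; the count was also 4 on the LCE plates alone and 8 without replicate 3. The plasmacytoid dendritic cell list as a sum was higher in Sca1-high wells on 8 of 8 plates (289.2 to 419.0 against 215.3 to 395.1 CPM over 7 genes). Its 3 tested genes, Ccr9, Runx2 and Tcf4, were called higher, while Cox6a2 had 104 counts in Sca1-low and 45 in Sca1-high wells. In the same order Siglech had 3 and 9 counts, Cd300c 4 and 5, and Pacsin1 6 and 7. The part of this list in the result was not tested. The 4 tested B lineage genes were all lower in Sca1-high wells, where the 8-gene list summed to 14.9 to 141.7 CPM against 13.8 to 522.3 CPM. Without the 195 wells that held marker genes of other lineages 13 of 27 tested members were called, 12 of them among the 13. Without the 3 richest wells of each plate 10 of 25 tested members were called, 9 of them among the 13. Ly6a itself went from a mean of 30.7 to 117 CPM (2.01 ± 0.12, edgeR adjusted p = 9.0e-22), which checks the ranking.

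Ranked by CD135, the receptor for FLT3 ligand that multipotent and lymphoid-primed progenitors carry, 10 members were higher in the CD135-high tercile and 0 lower, of 29 tested. Over all 10441 genes tested, 6.05% were higher and 5.12% lower. At an unadjusted p under 0.05 the members' counts were 17 and 0, and DESeq2 called 7 and 0. The members' median difference was 0.35, beside 0.00 over all genes tested. The transcription factors Irf7 and Irf9 were among the calls.

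Ifi44 had 6.69 to 20.2 CPM over plates (median 11.3) in CD135-low wells and 20.7 to 39.9 CPM (median 25.3) in CD135-high wells, so the arms did not overlap (1.36 ± 0.20, edgeR adjusted p = 1.4e-06). Irf7 had 1.79 to 10.1 CPM (median 6.41) against 9.72 to 17.2 CPM (median 12.2), higher on 8 of 8 plates (1.19 ± 0.27, edgeR adjusted p = 0.0017). Rtp4 went from a median of 27.3 to 51.5 CPM, also on 8 of 8 plates (1.01 ± 0.15, edgeR adjusted p = 1.5e-06). These 3 genes rose on every plate.

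The 2-5A synthetases Oas2 (1.78 ± 0.32, edgeR adjusted p = 6.2e-05) and Oas3 (1.24 ± 0.30, edgeR adjusted p = 0.0026) were higher on 7 of 8 plates each. Ifi27l2a was higher on 7 of 8 plates too (1.10 ± 0.22, edgeR adjusted p = 3.8e-04), from a median of 9.15 to 20.4 CPM. By Sca1 the difference of Ifi27l2a was 0.03 ± 0.23 (edgeR adjusted p = 0.96), and whether the proteins differ in this was not tested. Smaller differences were those of Irf9 (0.44 ± 0.15), Trim25, an E3 ligase that acts on RIG-I (0.36 ± 0.12), Ifitm1 (0.38 ± 0.07) and Ifitm3 (0.35 ± 0.09). Ifitm1 fell on replicates 5 (225 to 214 CPM) and 6 (275 to 241 CPM) and rose on the other plates. By CD135 quintile its mean was 265, 344, 419, 422 and 342 CPM, so it turned back at the top. The call of Irf9 was lost without any of replicates 1, 2, 3, 5 or 8 (adjusted p up to 0.171), that of Trim25 without any of 3 to 8 (up to 0.105) and that of Ifitm3 without 4 (0.058). Irf7 and Oas3 could be tested in only 4 of these 8 fits each.

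Ifitm3 by CD135 differed between the plate sets. On the LC plates it had 205, 200, 190 and 160 CPM in CD135-low wells and 340, 265, 265 and 313 CPM in CD135-high wells. On the LCE plates it had 205, 235, 201 and 210 CPM in CD135-low and 172, 182, 187.8 and 238 CPM in CD135-high wells. The LC plates all rose while 3 of the 4 LCE plates fell. The fitted difference was 0.66 ± 0.08 (LC) and -0.12 ± 0.10 (LCE), and the test of LCE minus LC gave -0.78 ± 0.12 (edgeR adjusted p = 1.1e-04). It was the only 1 of 29 members called in that test for CD135, lower, where 0.297% of all genes tested were lower and 0.345% higher, and 7 members had an unadjusted p under 0.05. The same test called 0 members by Sca1 (0.0295% of all genes higher and 0.0984% lower), 0 by GFP (0.0582% and 0.0291%) and 0 by CD150 (0.539% and 0.145%). At an unadjusted p under 0.05 in edgeR those counts were 4, 4 and 1.

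Lists of other cells moved with CD135 as well. The B lineage list was lower in CD135-high wells on 8 of 8 plates (4.69 to 128 against 23.0 to 438 CPM), as was the platelet list on 8 of 8 (15.7 to 42.5 against 55.4 to 160 CPM). All 4 tested genes of the plasmacytoid dendritic cell list were higher in CD135-high wells, where the 7 genes read summed to 320.2 to 489.9 CPM against 163.7 to 320.1 CPM. In CD135-low and CD135-high wells, Tcf4 had 1426 and 2320 counts, Runx2 532 and 890, Ccr9 92 and 228, and Cox6a2 48 and 134. The scarcer Pacsin1 had 4 and 11 counts, Siglech 2 and 12, and Cd300c 3 and 4. The part of these lists in the result was not tested. Without the wells of other lineages 11 members were called. With wells thinned to 3000 counts 2 of 12 tested members were called, on the LCE plates alone 2 of 23 tested, and without replicate 4 there were 6.

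Sca1 and CD135 went together across wells (median Spearman correlation within plates 0.287, given as a description over 8 plates), so the proteins were also fitted jointly. Wells were split at the plate medians of Sca1, CD135 and GFP and each effect was estimated beside the other 2. With this fit 5 of 21 tested members were higher with Sca1, namely Ddx58 (0.67 ± 0.12), Rtp4 (0.68 ± 0.14), Oasl2 (0.60 ± 0.14), Ifitm1 (0.45 ± 0.06) and Ifitm3 (0.36 ± 0.06), where 2.66% of all 8661 genes tested were higher and 2.72% lower. With CD135, 2 of 21 were higher, Ifitm1 (0.36 ± 0.07) and Ifitm3 (0.35 ± 0.07), against 3.97% of all genes higher and 3.91% lower. Ifi44 differed by 0.55 ± 0.20 with Sca1 (edgeR adjusted p = 0.089) and by 0.55 ± 0.22 with CD135 (edgeR adjusted p = 0.114) and passed neither test. Fewer members could be tested here because each plate was split into 8 sums.

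The summed level of the 32 genes moved in small steps along both rankings. By Sca1 quintile it was 516 ± 83, 579 ± 72, 643 ± 106, 710 ± 55 and 769 ± 52 CPM (mean ± SD, n = 8 plates) from the lowest to the highest. By CD135 quintile it was 550 ± 115, 577 ± 56, 658 ± 83, 670 ± 53 and 716 ± 85 CPM. The steps between neighbouring quintiles were at most about as large as the SD over plates, and the lowest and highest quintiles differed by more than either SD. Where both proteins lay above their plate medians it was 744 ± 58 CPM and where both lay below it was 545 ± 59 CPM. With Sca1 alone above it was 678 ± 88 CPM, and with CD135 alone above 581 ± 90 CPM. These sums are given as descriptions with no test.

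**Figure D5:**
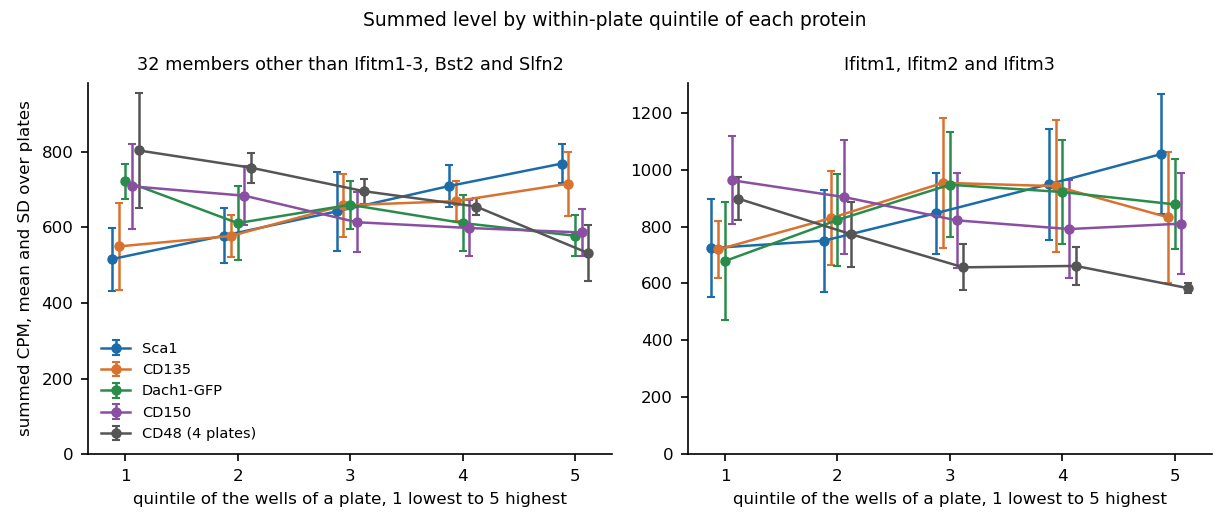
Points give the summed CPM (mean, bars SD over plates; y axis from 0) in each quintile of a plate's wells (x axis) for 5 proteins, for 32 members on the left and for Ifitm1, Ifitm2 and Ifitm3 on the right; n = 8 plates, 4 for CD48. On the left the Sca1 line goes from 516 to 769 CPM and the CD48 line from 804 to 532 CPM, and on the right the Dach1-GFP line is lowest in the first quintile, at 679 CPM.

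The Ifitm sum had another shape by CD135 and GFP. By CD135 it was 719 ± 100 CPM in the lowest quintile, 954 ± 228 in the middle and 832 ± 229 in the highest. By Dach1-GFP it was 679 ± 208 CPM in the lowest quintile, 947 ± 185 in the middle and 878 ± 158 in the highest. By Sca1 it went from 724 ± 174 to 1055 ± 210 CPM without turning back. The SDs over plates are wide because the LC plates held more Ifitm RNA than the LCE plates.

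Ranked by Dach1-GFP, the members split. Of 28 tested, 2 were higher in GFP-high wells and 3 lower, where 3.94% of all 10312 genes tested were higher and 3.8% lower. Ifitm1 (0.26 ± 0.05, edgeR adjusted p = 4.0e-04) and Ifitm2 (0.25 ± 0.05, edgeR adjusted p = 6.7e-04) were higher. Ifitm2 had 159 to 271 CPM over plates (median 238) in GFP-low and 201 to 354 CPM (median 274) in GFP-high wells, higher on 8 of 8 plates though the ranges overlapped. Lower were Ifi44 (fell by 0.82 ± 0.18 on the log2 scale, edgeR adjusted p = 0.0012, lower on 8 of 8 plates), Ifi27l2a (fell by 1.03 ± 0.25, edgeR adjusted p = 0.0039) and Trim25 (fell by 0.40 ± 0.12, edgeR adjusted p = 0.028).

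Ifi27l2a in GFP-low wells had 12.0, 14.9, 18.8 and 4.88 CPM (LC) and 33.4, 29.5, 35.6 and 22.2 CPM (LCE). In GFP-high wells it had 12.1, 5.28, 7.98 and 9.69 CPM (LC) and 18.2, 6.28, 8.07 and 4.14 CPM (LCE). All 4 LCE plates fell and 2 of the 4 LC plates did. Fitted by set, the change was -0.47 ± 0.33 (LC) and -1.71 ± 0.36 (LCE), and the difference between the sets, -1.24 ± 0.50, did not pass the test (edgeR adjusted p = 0.588). In the joint fit with Sca1 and CD135, Ifitm1 (0.44 ± 0.07), Ifitm2 (0.20 ± 0.05) and Ifitm3 (0.36 ± 0.07) were higher with GFP and no member was lower, where 3.86% of all genes tested were higher and 3.74% lower, and 4 members were lower at an unadjusted p under 0.05.

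CD135 and GFP ran opposite to each other across wells (median Spearman correlation within plates -0.516). The plasmacytoid dendritic cell list was lower in GFP-high wells on 8 of 8 plates (190.1 to 313.1 against 290.9 to 533.1 CPM) and its part in the result was not tested. The B lineage list fell with GFP, with 20.6 to 738.6 CPM in GFP-low against 5.1 to 121.4 CPM in GFP-high wells, and all 6 of its tested genes were lower. Without wells of other lineages the same 5 members were called. The call of Trim25 by GFP was lost without any of replicates 1, 2, 5, 6, 7 or 8 (adjusted p up to 0.092), and with wells thinned to 3000 counts 3 of 13 tested members were called.

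Ranked by CD150, a protein of long-term stem cells and of megakaryocyte and erythroid progenitors, 0 members were higher in CD150-high wells and 3 lower, of 29 tested. Over all 10380 genes tested, 1.51% were higher and 0.549% lower. At an unadjusted p under 0.05 the members' counts were 0 higher and 6 lower, and DESeq2 called 0 and 2. CD150 ran opposite to Sca1 and to CD135 across wells (median Spearman correlations within plates -0.254 and -0.326). It was not in the joint fit, so differences by CD150 were not separated from those by Sca1 or CD135. Ifitm1 had 500, 580, 511 and 470 CPM in CD150-low wells of the LC plates and 344, 341, 322 and 313 CPM on the LCE plates. In CD150-high wells it had 395, 385, 422 and 448 CPM (LC) and 201, 251, 192 and 252 CPM (LCE). It fell on 8 of 8 plates, by 0.42 ± 0.06 (edgeR adjusted p = 3.2e-05).

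Ifi44 fell by 0.91 ± 0.20 (edgeR adjusted p = 0.0079), from a median of 26.9 to 12.4 CPM and on 7 of 8 plates. Aim2 fell by 0.73 ± 0.18 (edgeR adjusted p = 0.019), from 17.5 to 43.8 CPM (median 25.2) in CD150-low to 7.79 to 27.9 CPM (median 14.96) in CD150-high wells and on 8 of 8 plates. The call of Aim2 was lost without replicate 7 (adjusted p = 0.068) and by DESeq2 (0.136). Without replicate 4 the count was 5, on the LC plates alone it was 1, and 1 of 13 tested members was called with wells thinned to 3000 counts. The macrophage and platelet lists were higher and the plasmacytoid dendritic cell list lower in CD150-high wells, each on 8 of 8 plates, and their part in the result was not tested; without wells of other lineages the 3 members were again called.

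CD48 is carried by lineage-primed progenitors and not by long-term stem cells. Ranked by CD48, 7 members were lower in CD48-high wells and 1 higher, of 25 tested on the 4 LCE plates. Over all 9076 genes tested, 4.45% were lower and 7.08% higher. The members' median difference was -0.51, beside -0.01 over all genes tested, and DESeq2 called 2 lower. CD48 ran opposite to Sca1 across wells and together with CD150 (median Spearman correlations within the 4 plates -0.364 and 0.322). It was not in the joint fit, so differences by CD48 were not separated from those by Sca1 or CD150. Ifitm1 had 349, 374, 323 and 393 CPM in CD48-low and 186, 224, 196 and 221 CPM in CD48-high wells, so the arms did not overlap. It fell by 0.77 ± 0.08 (edgeR adjusted p = 1.8e-11).

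Eif2ak2 had 98.7, 101.3, 99.6 and 92.4 CPM in CD48-low and 72.9, 76.2, 53.5 and 43.0 CPM in CD48-high wells and fell by 0.62 ± 0.14 (edgeR adjusted p = 0.0017). Slfn5 had 23.4, 44.8, 30.9 and 26.7 CPM against 15.3, 12.9, 20.7 and 10.2 CPM and fell by 1.04 ± 0.26 (edgeR adjusted p = 0.0041). Neither gene's arms overlapped. Oasl2 (fell by 0.86 ± 0.21), Ifitm3 (fell by 0.54 ± 0.10), Ddx58 (fell by 0.63 ± 0.21) and Isg20, an exonuclease (fell by 0.80 ± 0.28), were the other lower calls.

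Ifi27l2a went the other way. It had 12.3, 8.30, 10.3 and 5.33 CPM in CD48-low and 27.9, 14.9, 20.7 and 13.6 CPM in CD48-high wells, so the arms did not overlap, and rose by 1.11 ± 0.33 (edgeR adjusted p = 0.016). The member was thus called higher with CD48 and with CD135 and lower with GFP. Its call by CD48 was lost without replicate 8 (adjusted p = 0.056), and it could be tested in 3 of the 4 such fits. The call of Isg20 was lost without 5, 6 or 7 (up to 0.489), that of Ddx58 without 7 or 8 (up to 0.258) and that of Slfn5 without 6 (0.135).

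CD48-high wells were deeper, with plate medians of 7127 to 9770 counts against 4688 to 6437. In counts per well rather than CPM, Ifitm1 had 2.04 counts in CD48-low and 1.76 in CD48-high wells, Ifitm3 1.47 and 1.49, and Eif2ak2 0.559 and 0.534. The counts per well thus differed less between the arms than the CPM did, for these 3 genes. With wells thinned to 3000 counts 6 of 12 tested members were called, all lower, and without wells of other lineages 5 of 23 were. B lineage RNA was higher and the plasmacytoid dendritic cell list lower as a sum in CD48-high wells, each on 4 of 4 plates. The ranges of that sum overlapped (316.0 to 379.3 against 355.2 to 390.9 CPM), and edgeR called 0 of its 3 tested genes. Cox6a2 of the list had 14 counts in CD48-low and 51 in the deeper CD48-high wells. The part of both lists in the result was not tested.

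The rest of the pathway was read from other lists. Of 11 interferon genes listed, Ifna13 was read with 1 count in 1 well, and the others were not found by symbol in the count tables. Of 5 tested receptor chains, Ifnar2, a type I chain, was higher with CD135 (0.75 ± 0.12, edgeR adjusted p = 1.0e-05) and lower with GFP (fell by 0.35 ± 0.11, edgeR adjusted p = 0.046). Ifnar1 (fell by 0.62 ± 0.17) and the type II chain Ifngr2 (fell by 0.51 ± 0.16) were also lower with GFP. Ifngr1 fell by 0.47 ± 0.12 with Sca1 and by 0.56 ± 0.14 with CD135. DESeq2 called 0 of these 3 by GFP and 1 of the 2 by CD135. By CD150 and by CD48 edgeR called 0 of 5 receptor chains, with 0 at an unadjusted p under 0.05 and 0 by DESeq2. Of 5 or 6 tested genes that restrain the pathway, such as Socs1 and Socs3, edgeR called 0 in each of the 5 comparisons, with at most 1 at an unadjusted p under 0.05 and 0 by DESeq2.

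Of 10 JAK, STAT and IRF genes, all were tested. Irf2, which competes for the response element, was higher with Sca1 (0.32 ± 0.09) and CD135 (0.37 ± 0.09) and lower with CD48 (fell by 0.39 ± 0.13). Irf8, a factor of myeloid and dendritic development, moved another way, lower with Sca1 (fell by 1.26 ± 0.11), higher with CD135 (0.83 ± 0.10) and CD48 (1.60 ± 0.19) and lower with GFP (fell by 2.18 ± 0.11). With CD150 edgeR called 0 of the 10, with 1 at an unadjusted p under 0.05 and 0 by DESeq2. Irf1 was higher with CD135, Jak1 lower with CD48, Stat3 higher and Irf5 lower with GFP.

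Of 9 tested genes that sense nucleic acid upstream of interferon or act beside it, Samhd1 was higher with Sca1 (0.39 ± 0.11) and lower with CD48 (fell by 0.56 ± 0.15), where Cgas was higher (0.67 ± 0.20). Tmem173, the adaptor STING, was higher with CD135 (0.74 ± 0.10) and lower with GFP (fell by 0.64 ± 0.11).

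A list of 40 other interferon-stimulated genes gave 13 higher and 0 lower of 36 tested by Sca1, 9 and 0 of 37 by CD135, 3 and 3 of 37 by GFP, 0 and 1 of 37 by CD150, and 0 and 9 of 36 by CD48. The shares of all genes higher and lower were 5.63% and 6.2% by Sca1, 6.05% and 5.12% by CD135, 3.94% and 3.8% by GFP, 1.51% and 0.549% by CD150, and 7.08% and 4.45% by CD48. At an unadjusted p under 0.05 in edgeR the list had 21 higher and 0 lower by Sca1, 15 and 3 by CD135, 6 and 8 by GFP, 1 and 7 by CD150, and 1 and 13 by CD48. DESeq2 called 7 and 0, 3 and 0, 2 and 3, 0 and 1, and 0 and 4 in that order. Like the 37 members, the list was chosen with earlier results of these data known, so its counts are not independent of theirs. Irf1 is in this list too, and Ly6a, the gene of the ranked protein, is among the 13. The GTPase Iigp1 differed by 1.48 ± 0.24 with Sca1 and fell by 1.20 ± 0.23 with CD48, and the class I chain H2-K1 by 0.33 ± 0.03 and, falling, by 0.35 ± 0.05. Ly6a was lower with CD150 (fell by 0.63 ± 0.11) and with CD48 (fell by 0.81 ± 0.15).

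The plate sets differed in some members' levels. Of 36 members with at least 50 counts, 5 were higher on every LC plate than on any LCE plate, where 21.6% of all 14680 such genes were. Another 4 were lower, where 10.8% were. The share of members was thus under that of all genes for higher and near it for lower. The 5 were Trim25, Ifitm1, Ifitm2, Ifitm3 and Slfn2, and the 4 were Slfn5, Ifi27l2a, Rtp4 and Apol7b. Ifitm1 had 445 to 463 CPM (LC) and 248 to 281 CPM (LCE), and Rtp4 24.9 to 40.4 and 43.2 to 52.6 CPM. The sets also differed in depth, and set and depth cannot be told apart.

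Of the 37 members, 30 were tested in at least 1 comparison and 20 of these were called in at least 1, where 25.1% of all 10724 genes tested were. Another 10 were tested and not called in any, namely Ifih1, Dhx58, Stat2, Ifit2, Oas1a, Bst2, Rsad2, Parp14, Ifi35 and Xaf1. The remaining 7, Zbp1, Usp18, Ifit3, Mx1, Mx2, Slfn2 and Apol7b, had too few counts to be tested in any comparison. Ifitm1 was the member called in all 5, higher with Sca1, CD135 and GFP and lower with CD150 and CD48, though by CD135 and by GFP not on every plate.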

How the data were processed

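Members and lists were chosen with earlier results of these data known. The authors deposited counts, 1 whole number per gene and well, and the fluorescence intensity of each sorted cell, per the file headers. Aligner, counting tool, strand and handling of molecular tags: not given in the sources used here. GRCh38, a human build, is what the submitters' processing notes list, while the identifiers are mouse Ensembl identifiers, of which 27249 of 27318 matched a symbol in the supplied name table, so no coordinate comes from the files. LCE sort values were joined to wells by cell barcode. Barcode labels per the file headers carry no measurement. Each of the 2712 kept wells had at least 1000 counts, 500 genes and under 20% mitochondrial counts, and kept counts per plate were 2091816 to 5192543. Each well got 1 sorted cell and no doublet caller was run. Counts were summed per plate and tercile and tested with edgeR 4.0.16 in R 4.3.3 (filterByExpr, TMM, quasi-likelihood, plate as a block). P-values were adjusted by Benjamini and Hochberg across every gene in the fit and read at 0.05. Both terciles come from the same plate, which pairs them by construction. DESeq2 1.42.0 was an alternative. On simulated counts the fit was tested with known changes. ± after a log2 difference is its SE, and after CPM the SD over plates. Members were described in full where called in at least 1 comparison or among the 6 most gathered in the richest wells. Wells of other lineages held counts of 3 or more B lineage, macrophage or T and NK list genes, or 2% of counts from plasma cell, neutrophil, globin or platelet lists. Some genes of the pathway lists are not reported here by name.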

Additional observations from a re-analysis of the deposited data

Results flagged for a closer look

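A plate far from the others was looked for among 59 sets of values (the log2 ratio of high to low with a pseudocount of 1 CPM for each called member and comparison, and the CPM of each called member by plate), and 4 were found, where chance gives about 1 in 20. Ddx58 by Sca1 had a ratio of -0.0386 on replicate 6, against 0.776 to 1.2999 on the other plates. Ifitm3 by Sca1 had 0.14 on replicate 5, against 0.57 to 0.88. Ifi27l2a by CD135 had -0.14 on replicate 3, against 0.79 to 1.52. Eif2ak2 had 50.7 CPM on replicate 3, against 67.8 to 82.8 CPM. Between the plate sets, the CD135 difference of Ifitm3 differed by -0.78 ± 0.12 (LCE minus LC, edgeR adjusted p = 1.1e-04), the only such call among the 4 proteins tested.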

How the results depend on the processing

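With no replicate block, 4 members were called by Sca1, 5 by CD135, 0 by GFP, 0 by CD150 and 3 by CD48, so the pairing of terciles within a plate carries many calls. With wells thinned to 3000 counts, 4, 2, 3, 1 and 6 were called in that order, with 12 or 13 members tested. DESeq2 gave 8 by Sca1 and 2 by CD48. The LCE plates alone gave 4 by Sca1 and 2 by CD135, the LC plates alone 1 by CD150, and without wells of other lineages CD48 gave 5. Leaving out 1 plate at a time gave 8 to 15 by Sca1, 6 to 10 by CD135, 4 to 6 by GFP, 3 to 5 by CD150 and 6 to 8 by CD48. The shares of all genes called in these settings are not given, so the counts have no general rate beside them. Over 604 refits of single called members in these settings, 474 kept their call, 129 kept the direction without the call, and 1 reversed, Ifitm3 by CD135 on the LCE plates alone (-0.11). A member that failed the filter on low counts or got no adjusted p in a setting is not among the 604. With wells thinned to 3000 counts, 22 of the 39 calls entered. The joint fit, the difference between plate sets and the spread over wells were not recomputed under other settings. Shallow wells limit what can be said of Ifit3, Mx1 and Mx2.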
